A study of Mus musculus with 15 samples.

Results

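The genes described here were measured in the mouse secondary palate: 5 transcription factors that are textbook regulators of the epithelial to mesenchymal transition (*Snai1*, *Snai2*, *Zeb1*, *Zeb2* and *Twist2*), 3 cadherins (*Cdh1*, *Cdh2* and *Cdh11*), the epithelial surface protein gene *Epcam* and the intermediate filament gene *Vim*. They were chosen by name, as 10 of the 54232 genes of a deposited count table, and all 10 had enough counts to be tested. The tissue was dissected palatal shelf or palate of wild-type mice at 5 stages, E13.5, E14.5, E15.5 and E16.5 of embryonic life (E for embryonic day) and P0, the newborn. Each stage had 3 libraries of bulk RNA sequencing, and each library was made from the palates of 3 pooled embryos, so n = 3 below counts pools. Whether the pools of a stage came from separate litters is not stated, and p-values measure the spread between these pools. All groups were wild-type with no treatment in the labels, so every comparison is between stages. The design of the series names the time course of palate transcripts as an aim.

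The secondary palate forms from paired shelves of mesenchyme covered by epithelium, which rise above the tongue, meet at the midline and fuse. The epithelial seam between the shelves then disappears, and epithelial to mesenchymal transition has long been discussed as one of its fates beside cell death and migration. In such a transition, repressors of the Snail, Zeb and Twist families bind short E-box motifs, lower E-cadherin and other epithelial adhesion genes, and cells come to carry N-cadherin and vimentin. Cadherins join like cells to each other through calcium-dependent contacts and are anchored inside the cell by catenins. The same repressors are also ordinary genes of mesenchyme and neural crest, and N-cadherin is a major cadherin of neural tissue, so in a whole-tissue library their RNA can come from several cell types. In bulk tissue, fewer cells of a type and less RNA per cell cannot be told apart.

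The E-box that Snail and Zeb factors prefer reads CAGGTG on one strand and CACCTG on the other. RefSeq (GRCm38.p6) start sites were matched for 5 of the 10 genes, *Epcam*, *Snai1*, *Twist2*, *Vim* and *Zeb2* (the last with several start sites), and the 250 bases upstream of each were searched for either form. *Epcam* and *Snai1* held a match and are printed because they show the motif in an adhesion gene and in a gene of its own repressors. Both sequences run 5′ to 3′ on the + strand and end at the base before the start site, with the E-boxes in capitals.
Epcam, chr17:87635729-87635978: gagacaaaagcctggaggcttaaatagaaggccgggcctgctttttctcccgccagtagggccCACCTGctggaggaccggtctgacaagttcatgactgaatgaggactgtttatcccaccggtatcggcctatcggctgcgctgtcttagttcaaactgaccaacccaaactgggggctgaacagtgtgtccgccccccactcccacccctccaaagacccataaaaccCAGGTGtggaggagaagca
Snai1, chr2:167537945-167538194: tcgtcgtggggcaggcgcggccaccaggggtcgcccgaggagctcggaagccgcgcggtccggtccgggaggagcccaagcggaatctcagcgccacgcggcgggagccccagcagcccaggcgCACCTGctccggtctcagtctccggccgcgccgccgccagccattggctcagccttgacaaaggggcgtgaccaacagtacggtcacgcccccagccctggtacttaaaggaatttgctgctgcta
The *Epcam* window held 2 matches, starting 187 and 19 bases upstream of the start site, and the *Snai1* window held 1, starting 126 bases upstream. No match was found in the windows of *Twist2*, *Vim* or *Zeb2*. Of 32851 promoter windows of the same length, 17.2% held at least 1 match and 2.06% held 2 or more. A match describes letters in the reference, and no binding was measured in these samples.

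Gene counts summed to between 21.5 and 69.0 M (1e6) per library. They were 58.2 to 69.0 M from E13.5 to E15.5 and 21.5 to 52.3 M at E16.5 and P0. Depth and stage thus cannot be told apart between these early and late stages. The lowest count of any of the 10 genes was 202, for *Twist2* in P0 replicate 3. Levels are given as CPM, counts per 1e6 scaled with TMM factors (trimmed mean of M values), and as TPM, which also divides by gene length, where genes are compared with each other. Markers of palatal mesenchyme (10 of 10 genes) and epithelium (15 of 15) were detected in every library. Neuronal markers were also detected in every library, with the summed level of 11 genes between 1151 and 6787 CPM. E14.5 replicate 1 had the highest neuronal sum and the highest sum of 5 choroid plexus genes (1347 CPM, against 12.9 to 751 CPM in the others). E15.5 replicate 1 had an epithelial sum of 704 CPM, against 1740 and 2587 CPM in the other E15.5 libraries. The 4 Y-linked genes measured were near 0 in all E16.5 libraries and in 1 library each of E13.5, E15.5 and P0, so stage and sex cannot be told apart in comparisons with E16.5.

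*Vim*, the intermediate filament gene of mesenchymal cells, was the highest of the 10 per length at every stage, from 623 ± 53.6 TPM (SD, n = 3) at E13.5 to 852 ± 153 TPM at P0, and did not overlap the next gene at any stage. *Cdh11* came next at E13.5 with 189 ± 28.1 TPM, also without overlap with the gene below it. Below these, neighbours in the order from *Epcam* (123 ± 41.2 TPM) through *Snai1*, *Cdh2*, *Snai2*, *Cdh1* and *Twist2* to *Zeb1* (32.2 ± 5.95 TPM) overlapped, and *Zeb2* was lowest at 18.6 ± 3.18 TPM without overlap. At P0 the order was *Vim*, *Epcam* (169.9 ± 71.1 TPM), *Cdh1* (100.9 ± 36.4 TPM), *Cdh11* (74.7 ± 22.3 TPM), *Snai1* (49.2 ± 20.5 TPM), *Cdh2* (30.5 ± 6.67 TPM), *Snai2* (28.7 ± 14.7 TPM), *Zeb1* (16.3 ± 3.93 TPM), *Zeb2* (7.51 ± 1.48 TPM) and *Twist2* (6.67 ± 2.11 TPM). Apart from *Vim* against *Epcam* and *Zeb1* against *Zeb2*, neighbours at P0 overlapped between libraries. *Cdh1* thus stood 7th of 10 at E13.5 and 3rd at P0, while *Cdh2* moved from 5th to 6th and *Twist2* from 8th to 10th.

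**Figure D1:**
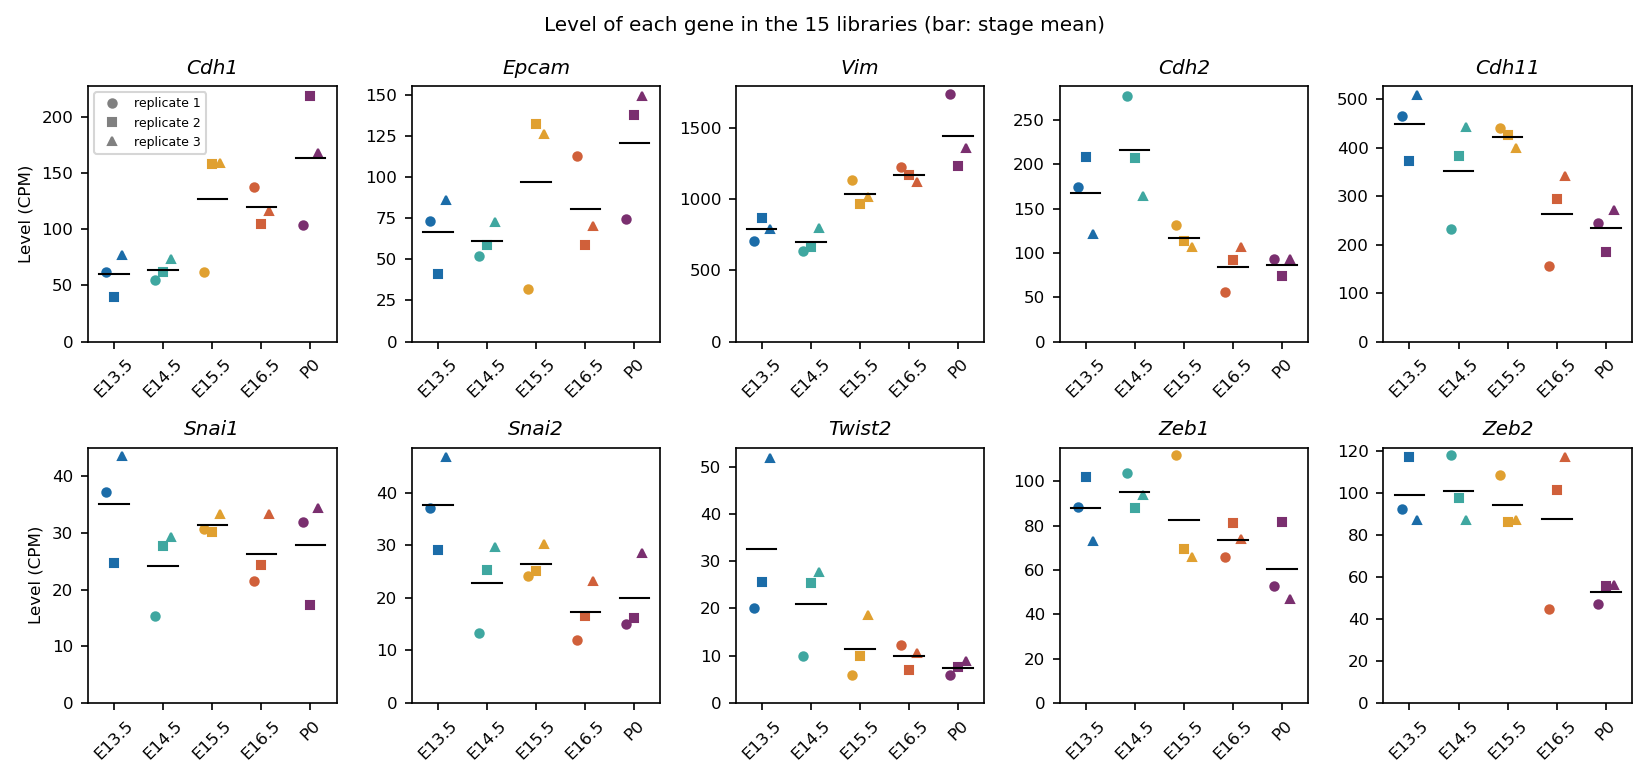
Level of each of the 10 genes in CPM (vertical axis, linear from 0) by stage (horizontal axis). Circles, squares and triangles are replicates 1, 2 and 3 and the bar is the stage mean. *Cdh1* and *Vim* end higher than they start, *Twist2*, *Cdh2*, *Cdh11*, *Zeb2* and *Snai2* end lower, and *Snai1* overlaps between the first and last stage.

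Between E13.5 and P0, *Cdh1* and *Vim* rose and *Twist2*, *Cdh2*, *Cdh11*, *Zeb2* and *Snai2* fell. These 7 of 10 genes passed an adjusted p of 0.05 in edgeR's quasi-likelihood test with Benjamini-Hochberg adjustment over 22151 genes. All genes tested gave 56.6% called in this comparison (29.8% higher, 26.8% lower), so a share of this size is near the background, and the 2 higher and 5 lower calls are read gene by gene below. The median log2 fold change of the 10 genes was -0.72, beside 0.03 over all genes. Across adjacent stages, only E15.5 against E14.5 gave calls among the 10 in this fit, *Cdh2* lower and *Vim* higher, with 26.1% of all genes called. No member was called for E14.5 against E13.5, E16.5 against E15.5 or P0 against E16.5, by edgeR or by DESeq2. All genes gave 0.00903%, 1.41% (1.03% higher, 0.379% lower) and 0.352% called in edgeR. DESeq2 called more: 1000 of 19504, 2094 of 20361 and 663 of 20790 genes with an adjusted p. In each of these contrasts 1 member had an unadjusted p under 0.05 in edgeR: *Snai2* (log2 fold change -0.73, edgeR adjusted p = 0.31), *Cdh11* (-0.68, 0.188) and *Zeb2* (-0.73, 0.315). Of all 22151 genes 3538, 4830 and 2602 did so, and 1 of 10 was not above that share in any of them. In the test over all 5 stages 5 of 10 passed, *Vim*, *Cdh2*, *Twist2*, *Cdh1* and *Cdh11*, with 59.1% of all genes called.

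**Figure D2:**
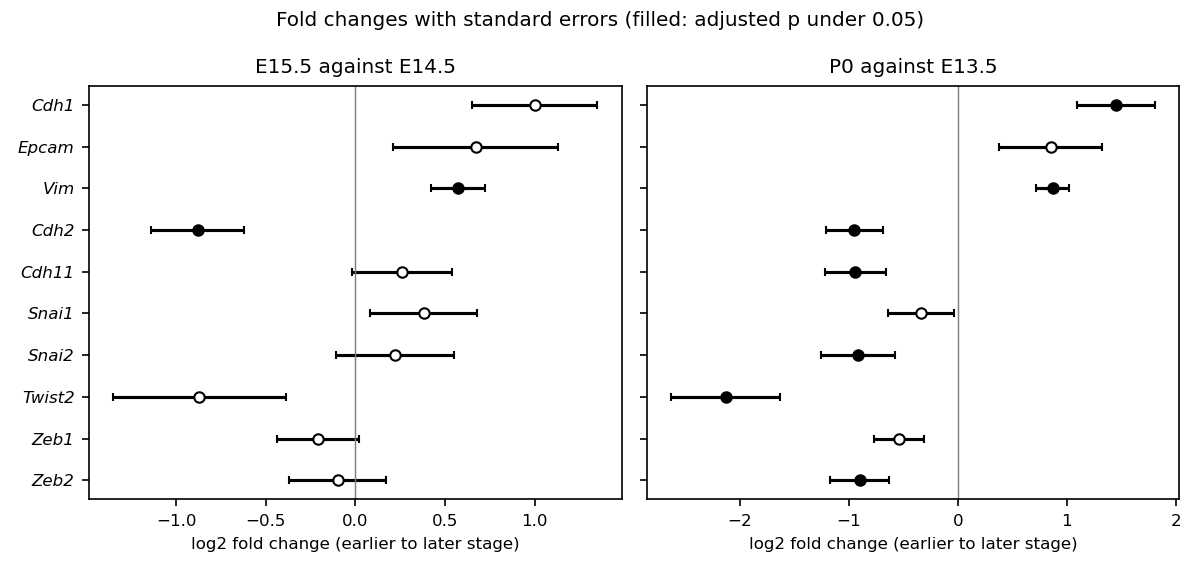
Log2 fold change (horizontal axis) of the 10 genes with standard errors as bars, for E15.5 against E14.5 (left) and P0 against E13.5 (right). Filled points had an adjusted p under 0.05 in edgeR's quasi-likelihood test: *Vim* and *Cdh2* on the left, and all but *Epcam*, *Snai1* and *Zeb1* on the right.

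*Cdh1* (chr8:106603351-106670246, on GRCm38 as all positions here) encodes E-cadherin, the adhesion molecule of epithelia and the classical target of the Snail and Zeb repressors. Its level was 62.3, 39.98 and 77.1 CPM in replicates 1, 2 and 3 of E13.5 and 55.0, 61.8 and 73.7 CPM at E14.5. It was 62.2, 158 and 159.5 CPM at E15.5, 137, 105 and 116 CPM at E16.5, and 104, 219 and 168 CPM at P0. Every library of E16.5 and P0 exceeded every library of E13.5 and E14.5, while E15.5 was split, with replicate 1 at the early level and the others above it. From E13.5 to P0 *Cdh1* rose 2.74-fold (log2 fold change 1.45 ± 0.36 SE, adjusted p = 0.00428 in edgeR, 3 of 3 libraries above 3 of 3), with adjusted p from 0.001 to 0.0226 when any 1 library was left out. For E15.5 against E14.5 the log2 fold change was 1.00 ± 0.35 (edgeR adjusted p = 0.0549), and the groups overlapped through E15.5 replicate 1. Without that library the value was 1.31 (edgeR adjusted p = 0.0105), and without E14.5 replicate 1 as well it was 1.22 (0.0453). It also passed with DESeq2 (adjusted p = 0.0258), with P0 replicate 1 or 2 left out (0.0375 and 0.0445), with a filter at a mean of 1 CPM (0.0435) and with upper-quartile scaling (0.0403).

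*Epcam* (chr17:87635979-87651106), whose promoter is printed above, encodes an adhesion and signalling protein of the epithelial surface. It measured 73.4, 41.4 and 86.4 CPM at E13.5, 52.0, 58.7 and 72.8 CPM at E14.5, and 32.0, 133 and 126 CPM at E15.5. At E16.5 it measured 113, 58.8 and 70.4 CPM, and at P0 75.0, 138 and 149.9 CPM. All P0 libraries lay above all E14.5 libraries, every other pair of stages overlapped, and E15.5 replicate 1 was the lowest of the 15 libraries. The log2 fold change was 0.85 ± 0.47 from E13.5 to P0 (edgeR adjusted p = 0.134) and 0.67 ± 0.46 from E14.5 to E15.5 (edgeR adjusted p = 0.304). Without E15.5 replicate 1 the edgeR adjusted p was 0.0439 and 0.0477 respectively, with values of 0.84 and 1.07.

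Most of the 15 epithelial markers rose over the span in which *Cdh1* rose. From E13.5 to P0 13 rose and none fell (29.8% of all genes rose), and from E14.5 to E15.5 6 rose and none fell (12.7%). Their summed level was 322 to 732 CPM at E13.5, 512 to 717 at E14.5, 704 to 2587 at E15.5, 1687 to 2940 at E16.5 and 1553 to 4150 at P0. None of the 15 was at 0 in any library. E15.5 replicate 1, lowest of its stage for *Cdh1* and *Epcam*, was also lowest for this sum, as was P0 replicate 1. The part of epithelial content in the *Cdh1* rise was not tested.

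*Epcam* and *Cdh1* did not keep a fixed ratio in each library. The log2 ratio of *Epcam* to *Cdh1* in CPM was 0.24, 0.05 and 0.16 in the E13.5 libraries and -0.08, -0.07 and -0.02 at E14.5. It was -0.96, -0.25 and -0.34 at E15.5, -0.28, -0.83 and -0.73 at E16.5 and -0.47, -0.66 and -0.17 at P0. This ratio of CPM lay above 0 only in the E13.5 libraries, and every E13.5 and E14.5 library exceeded every later one. Per length, in TPM, *Epcam* was above *Cdh1* in every library, so 0 does not mark equal levels per length. The mean log2 ratio went from 0.15 ± 0.09 (SD) at E13.5 to -0.43 ± 0.25 at P0. The ratio over all 5 stages had p = 0.0219 in an exact permutation test over 1401400 assignments of libraries to stages, and 0.0766 after adjustment over 7 ratios. The difference from E13.5 to P0 alone was not tested. Leaving out E15.5 replicate 1 gave that exact test an adjusted p of 0.0272, and leaving out E16.5 replicate 1 gave 0.037.

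*Cdh2* (chr18:16588877-16809246) encodes N-cadherin, the cadherin of neural and many mesenchymal cells that replaces E-cadherin in a cadherin switch. Its level was 174, 208 and 122 CPM at E13.5 and 277, 208 and 164 CPM at E14.5. It was then 132, 113 and 107 CPM at E15.5, 55.7, 91.9 and 106 CPM at E16.5, and 92.8, 74.4 and 93.3 CPM at P0. All E15.5 libraries lay below all E14.5 libraries, and all P0 libraries below all E13.5 libraries. *Cdh2* fell by 0.88 ± 0.26 on the log2 scale from E14.5 to E15.5 (edgeR adjusted p = 0.0259) and by 0.95 ± 0.26 from E13.5 to P0 (edgeR adjusted p = 0.00751).

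The fall from E13.5 to P0 passed with any 1 library left out (edgeR adjusted p 0.0031 to 0.0369). The fall from E14.5 to E15.5 did not pass without E14.5 replicate 1 (log2 fold change -0.67, edgeR adjusted p = 0.127), E14.5 replicate 2 (0.0581), E15.5 replicate 2 (0.0809) or E15.5 replicate 3 (0.0901). With both E14.5 replicate 1 and E15.5 replicate 1 left out it was -0.77 (edgeR adjusted p = 0.128).

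Some neuronal markers fell from E14.5 to E15.5, where *Cdh2* fell: 5 of 11 fell and none rose (13.4% of all genes fell). From E13.5 to P0 3 of 11 fell and 1 rose, beside 26.8% of all genes lower and 29.8% higher. The share that fell over that longer span was thus near the background. The summed level of the 11 genes was 2218, 4045 and 1151 CPM in the E13.5 libraries and 6787, 4690 and 3158 CPM in the E14.5 libraries, in both cases in the same order as *Cdh2*. It was 1179 to 2213 CPM at E15.5, 1406 to 2387 at E16.5 and 1182 to 1940 at P0, and none of the 11 genes was at 0 in any library. E13.5 replicate 3 had the lowest neuronal sum of all libraries and 122 CPM of *Cdh2*. It also had the highest summed level of the 10 palatal mesenchyme markers in its stage (3992 CPM, against 3039 and 2416 CPM). The part of neural tissue in the *Cdh2* fall was not tested.

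**Figure D3:**
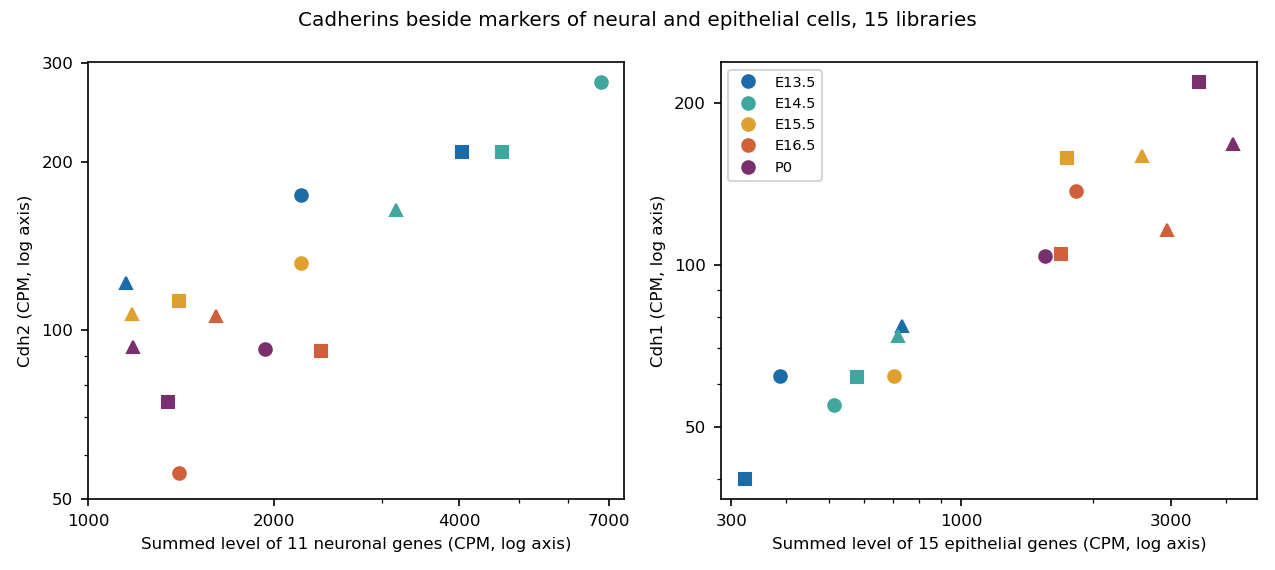
Left, *Cdh2* level against the summed level of 11 neuronal genes; right, *Cdh1* level against the summed level of 15 epithelial genes, all in CPM on log axes. Each point is 1 of the 15 libraries, coloured by stage, with circles, squares and triangles for replicates 1, 2 and 3. The E14.5 replicate 1 point is at the top right on the left panel, and the E15.5 replicate 1 point lies among the early libraries on the right panel.

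The ratio of *Cdh2* to *Cdh1* in the same library, which needs no scaling between libraries, was lower at E16.5 and P0 than at E13.5 and E14.5. *Cdh2* was 2.80, 5.21 and 1.58 times *Cdh1* in CPM at E13.5 and 5.04, 3.36 and 2.22 times at E14.5. It was 2.12, 0.714 and 0.672 times at E15.5, 0.406, 0.876 and 0.913 at E16.5, and 0.894, 0.340 and 0.555 at P0. In CPM all 6 libraries of E13.5 and E14.5 lay above 1 and all 6 of E16.5 and P0 below it, with E15.5 on both sides. CPM is not divided by gene length (8066 bases for *Cdh2*, 4574 for *Cdh1*), so 1 does not mark equal levels per length. In TPM, E13.5 replicate 3 had 54.2 for *Cdh2* and 60.6 for *Cdh1*. The mean log2 ratio went from 1.51 ± 0.86 at E13.5 to -0.86 ± 0.70 at P0, a difference of -2.36. Over all 5 stages the exact permutation test gave p = 0.00694, and 0.0486 after adjustment over the 7 ratios. That call is narrow: the adjusted p of the exact test ranged from 0.0272 to 0.112 with 1 library left out and stayed under 0.05 only without E13.5 replicate 3, E15.5 replicate 1, E16.5 replicate 1 or P0 replicate 1.

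**Figure D4:**
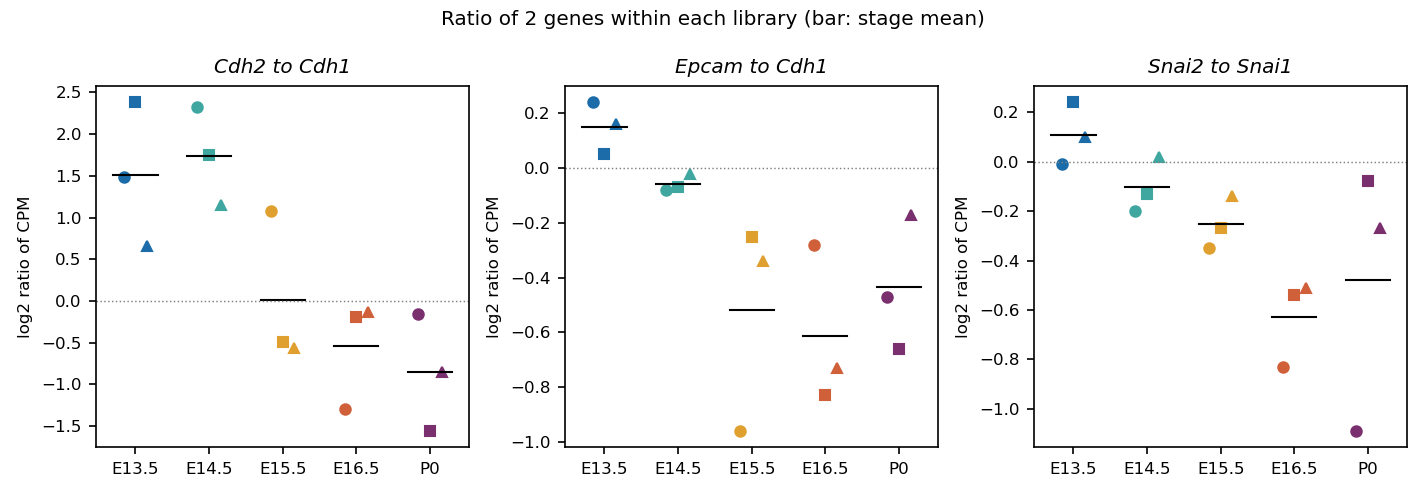
Log2 ratio of CPM within each library (vertical axis) by stage (horizontal axis) for *Cdh2* to *Cdh1*, *Epcam* to *Cdh1* and *Snai2* to *Snai1*. Circles, squares and triangles are replicates 1, 2 and 3, the bar is the stage mean and the dotted line marks equal CPM, which is not divided by gene length. The *Cdh2* to *Cdh1* ratio is above the line in all E13.5 and E14.5 libraries and below it in all E16.5 and P0 libraries.

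*Cdh11* (chr8:102632095-102785642) encodes OB-cadherin, a cadherin of mesenchyme and bone-forming cells. It measured 465, 372 and 509.5 CPM at E13.5, 233, 384 and 442 CPM at E14.5 and 441, 426 and 399.6 CPM at E15.5. It measured 156, 293 and 342 CPM at E16.5 and 245, 184 and 271 CPM at P0, so that all 6 late libraries lay below all E15.5 libraries. The fall from E13.5 to P0 was 1.92-fold (log2 fold change -0.94 ± 0.28, edgeR adjusted p = 0.013), and it did not pass without P0 replicate 2 (-0.78, edgeR adjusted p = 0.0632). The step from E15.5 to E16.5 was -0.68 ± 0.28, with no overlap between the groups and an edgeR adjusted p of 0.188. *Cdh11* passed the test over all 5 stages with an edgeR adjusted p of 0.0385, and the range was 0.0197 to 0.098 when 1 library was left out, above 0.05 in 10 of 15 cases. It also did not pass with upper-quartile scaling (0.0601) or a filter at a mean of 1 CPM (0.0526). Palatal mesenchyme markers were mixed over the span in which *Cdh11* fell. From E13.5 to P0 5 of 10 fell and 3 rose (median log2 fold change -1.08), beside 26.8% of all genes lower and 29.8% higher. These counts also apply to the falls of *Twist2* and *Snai2* below. Osteoblast markers rose over the same span: 7 of 9 rose from E13.5 to P0 (29.8% of all genes rose). From E14.5 to E15.5 7 of 9 also rose (12.7% of all genes), where *Cdh11* had a log2 fold change of 0.26 and did not pass. The osteoblast markers had summed levels of 116 to 223 CPM at E13.5 and 3307 to 6494 CPM at P0. The part of these cell types in the *Cdh11* fall was not tested.

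*Vim* (chr2:13573927-13582826) measured 709, 867 and 789 CPM at E13.5 and 637, 664 and 799 CPM at E14.5. It measured 1130.4, 963 and 1017 CPM at E15.5, 1223, 1167 and 1119.6 CPM at E16.5 and 1738, 1229 and 1359.7 CPM at P0. Every library from E15.5 on exceeded every earlier one. It rose 1.48-fold from E14.5 to E15.5 (log2 fold change 0.57 ± 0.15, edgeR adjusted p = 0.0158) and 1.83-fold from E13.5 to P0 (0.87 ± 0.15, edgeR adjusted p = 0.000364). The larger span held with any 1 library left out (edgeR adjusted p 0.000309 to 0.00308). The step to E15.5 did not pass without E14.5 replicate 1 (0.49, edgeR adjusted p = 0.0801), E14.5 replicate 2 (0.52, 0.067) or E15.5 replicate 1 (0.49, 0.0528), nor without both replicates 1 (0.43, 0.159). Macrophage markers, another vimentin-rich cell type, went from a summed 68.6 to 106 CPM at E13.5 to 356 to 545 CPM at P0, with 6 of 7 genes higher and 1 lower. Endothelial markers went from 322 to 428 CPM to 470.2 to 707 CPM, with 4 of 7 genes higher. All genes gave 56.6% called in this comparison (29.8% higher, 26.8% lower), so the endothelial share called was near the background. The part of these cell types in the *Vim* rise was not tested.

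*Twist2* (chr1:91801461-91848028), a basic helix-loop-helix factor of mesenchyme and dermis, showed the largest fold change of the 10 genes from E13.5 to P0. It measured 20.1, 25.6 and 51.8 CPM at E13.5, 9.89, 25.3 and 27.7 CPM at E14.5 and 5.95, 9.85 and 18.7 CPM at E15.5. It measured 12.3, 7.05 and 10.6 CPM at E16.5 and 5.82, 7.65 and 8.79 CPM at P0. All P0 libraries lay below all E13.5 and E14.5 libraries, while each pair of adjacent stages overlapped. From E13.5 to P0 it was 4.38-fold lower (log2 fold change -2.13 ± 0.50, edgeR adjusted p = 0.00299), with adjusted p from 0.00171 to 0.0176 when any 1 library was left out. No single step between adjacent stages passed, the largest being -0.87 ± 0.48 from E14.5 to E15.5 (edgeR adjusted p = 0.195).

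Its paralog *Twist1*, which is no member of the set, was 92.7 ± 29.1 CPM at E13.5 and 43.3 ± 7.33 CPM at P0 (log2 fold change -1.10 ± 0.29, edgeR adjusted p = 0.0058). The mean log2 ratio of *Twist2* to *Twist1* was -1.58 ± 0.59 at E13.5 and -2.54 ± 0.49 at P0. The exact permutation test over the 5 stages gave p = 0.089 (adjusted 0.125) for that ratio, so a difference of the ratio between stages did not pass.

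*Snai2* (chr16:14705852-14709385), or Slug, a zinc finger repressor of neural crest and mesenchyme, measured 37.1, 29.0 and 46.9 CPM at E13.5, 13.4, 25.3 and 29.6 CPM at E14.5 and 24.1, 25.1 and 30.3 CPM at E15.5. It measured 12.1, 16.6 and 23.3 CPM at E16.5 and 15.001, 16.3 and 28.5 CPM at P0. All P0 libraries lay below all E13.5 libraries, the closest being P0 replicate 3 and E13.5 replicate 2. The fall was 1.89-fold (log2 fold change -0.92 ± 0.34, edgeR adjusted p = 0.0328). It did not pass without E13.5 replicate 1 (edgeR adjusted p = 0.0624), E13.5 replicate 3 (0.107), P0 replicate 1 (0.135) or P0 replicate 2 (0.122). It also did not pass with upper-quartile scaling (0.0597), a filter at a mean of 1 CPM (0.0516) or a fit of the 6 libraries alone (0.0524).

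*Snai1* (chr2:167538195-167542814), the Snail repressor whose promoter is printed above, measured 37.3, 24.6 and 43.7 CPM at E13.5, 15.4, 27.7 and 29.2 CPM at E14.5 and 30.7, 30.2 and 33.4 CPM at E15.5. It measured 21.4, 24.3 and 33.3 CPM at E16.5 and 32.0, 17.2 and 34.4 CPM at P0. The first and last stage overlapped, and the log2 fold change of -0.34 ± 0.30 did not pass (edgeR adjusted p = 0.358), nor did the test over all stages (edgeR adjusted p = 0.479). Within libraries *Snai2* was 0.995, 1.18 and 1.07 times *Snai1* in CPM at E13.5, 0.563, 0.686 and 0.700 times at E16.5 and 0.469, 0.945 and 0.831 times at P0. The exact permutation test of this ratio gave p = 0.0426, and 0.0993 after adjustment over the 7 ratios, with an adjusted 0.00314 without P0 replicate 1.

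*Zeb2* (chr2:44983632-45117395) encodes a zinc finger and homeodomain repressor of neural crest, neural tissue and mesenchyme. It measured 92.1, 117 and 87.0 CPM at E13.5, 118, 97.7 and 86.9 CPM at E14.5 and 108, 86.2 and 87.3 CPM at E15.5. It measured 44.8, 101 and 117 CPM at E16.5 and 47.2, 55.6 and 56.2 CPM at P0. The level was flat within the spread through E15.5, the E16.5 libraries ranged most, and all P0 libraries lay below all E13.5, E14.5 and E15.5 libraries. From E13.5 to P0 it was 1.86-fold lower (log2 fold change -0.90 ± 0.27, edgeR adjusted p = 0.014), and did not pass without E13.5 replicate 2 (edgeR adjusted p = 0.0549) or P0 replicate 1 (0.0561). The step from E16.5 to P0 was -0.73 ± 0.27 (edgeR adjusted p = 0.315), and without E16.5 replicate 1 it was -1.04 (0.0237).

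*Zeb1* (chr18:5591860-5775467), its paralog, measured 88.6, 102 and 73.1 CPM at E13.5, 104, 88.2 and 94.1 CPM at E14.5 and 112, 69.7 and 65.7 CPM at E15.5. It measured 66.0, 81.1 and 73.8 CPM at E16.5 and 52.8, 81.7 and 46.8 CPM at P0. The first and last stage overlapped, and the log2 fold change of -0.54 ± 0.23 did not pass (edgeR adjusted p = 0.0641). It passed without P0 replicate 2 (-0.80, edgeR adjusted p = 0.00958), E13.5 replicate 3 (-0.67, 0.045) or E15.5 replicate 1 (-0.55, 0.0308). The ratio of *Zeb2* to *Zeb1* had an exact permutation p of 0.753 (adjusted 0.878), with a mean log2 ratio of 0.17 ± 0.10 at E13.5 and -0.15 ± 0.41 at P0.

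The order of replicates within the early stages was not the same for all members. *Cdh2* and *Zeb2* had the same order over replicates as the neuronal sum at both E13.5 and E14.5, while *Snai1*, *Snai2*, *Cdh11*, *Cdh1* and *Epcam* had the reverse order at both. E14.5 replicate 1, the library with the highest neuronal sum, had the highest *Zeb1*, *Zeb2* and *Cdh2* and the lowest level of each of the other 7 members of its stage. Over the 15 libraries log2 CPM of *Snai2* correlated with *Snai1* (Pearson r = 0.78) and *Cdh11* (0.87), and *Zeb2* with *Zeb1* (0.71) and *Cdh2* (0.73). *Cdh1* correlated with *Epcam* at 0.86, and inversely with *Cdh2* (r = -0.82), *Zeb1* (r = -0.69) and *Zeb2* (r = -0.63), but hardly with *Snai1* (r = -0.02) or *Snai2* (r = -0.25). *Vim* went with *Cdh1* (r = 0.63) and *Epcam* (r = 0.32), and hardly with *Snai1* (r = 0.06). It was inverse to *Cdh2* (r = -0.81), *Twist2* (r = -0.68), *Zeb1* (r = -0.65), *Zeb2* (r = -0.65), *Cdh11* (r = -0.48) and *Snai2* (r = -0.40). These 15 points share 5 stages, 3 libraries each, and the tissue composition given above, so the coefficients are descriptions.

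The genes most like each member in log2 CPM over the 15 libraries were taken from 11856 genes with a mean of at least 10 CPM. For *Cdh1* they were *Llgl2* (r = 0.985), a cell polarity gene, *Irf2* (0.980) and *Spint2* (0.973), an inhibitor of epithelial serine proteases. For *Epcam* they were *Grb7* (0.978), *Prss8* (0.953), an epithelial serine protease gene, and *Vsig10* (0.945). For *Cdh2* they were *C530008M17Rik* (0.970), *Srgap1* (0.968), which acts downstream of Slit and Robo, and *Gpr137c* (0.967). For *Cdh11* they were *Cbfb* (0.958), the partner of Runx factors, *4930579G24Rik* (0.947) and *Cald1* (0.940), the caldesmon gene. For *Vim* they were *Tmem219* (0.964), *Ptgis* (0.960), the prostacyclin synthase gene, and *Atf4* (0.955).

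Among the repressors, *Snai1* was most like *Mtmr11* (0.958), *Rasl11b* (0.936) and *Rarg* (0.920), a retinoic acid receptor gene. *Snai2* was most like *Ptbp1* (0.954), *Tipin* (0.952) and *Rad51ap1* (0.949), genes of splicing, the replication fork and DNA repair. *Zeb1* was most like *Vps13c* (0.938), *Armcx4* (0.914) and *Mars2* (0.910). *Zeb2* was most like *Usp31* (0.937), *Ago3* (0.922) and *Phc3* (0.918). *Twist2* was most like *Eif3e* (0.938), *E2f4* (0.919) and *Anp32a* (0.912). None of the 10 genes was among the 3 genes most like another.

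Other transcription factors tied to epithelial to mesenchymal transition mostly fell from E13.5 to P0. Of 16 tested, 11 fell and 1 rose (26.8% and 29.8% of all genes), with a median log2 fold change of -1.07 beside 0.03 over all genes. The largest falls with at least 10 CPM in the higher stage were *Sox9*, the cartilage and neural crest factor (log2 fold change -2.53 ± 0.40, from 105 to 18.3 CPM), *Prrx1*, a mesenchymal homeobox gene (-1.78 ± 0.28, from 375 to 109 CPM), and *Klf8* (-1.57 ± 0.35, from 11.4 to 3.83 CPM). *Snai3*, the remaining Snail gene and the single one to rise, went from 0.556 to 2.07 CPM. From E14.5 to E15.5 *Snai3* was also the 1 gene of the list called (log2 fold change 1.42 ± 0.47, edgeR adjusted p = 0.044), where 26.1% of all genes were called. That count was 0 without a low-count filter, with the replicate block, without both E14.5 replicate 1 and E15.5 replicate 1, and in 9 of 15 fits that left out 1 library (any of E14.5, E13.5 replicate 1 or 3, E15.5 replicate 1 or 2, or E16.5 replicate 2 or 3). It was 2 with DESeq2 and without E16.5 replicate 1 or P0 replicate 3. *Snai3* is named here after its values were seen. Cartilage markers, to which *Sox9* belongs, went from a summed 1117 to 2962 CPM at E13.5 to 400.0 to 1213 CPM at P0. Of these 7, 3 were lower, *Sox9* among them, and 1 was higher. *Prrx1*, *Twist1* and *Msx1* of the transition factors are also among the palatal mesenchyme markers counted beside *Cdh11*.

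Of 12 factors known to hold the epithelial state, 6 rose and none fell from E13.5 to P0 (median 1.08), and the other 6 did not pass. All genes gave 56.6% called in this comparison (29.8% higher). From E14.5 to E15.5 2 rose, *Elf3* and *Klf4*, with 26.1% of all genes called (12.7% higher). Counting both directions, the share called in the list was not above that of all genes in either comparison. Counting rises alone, 6 of 12 was above the 29.8% of all genes, and 2 of 12 was near the 12.7%. *Elf3*, an epithelial Ets factor, rose from 5.06 to 48.5 CPM (log2 fold change 3.26 ± 0.68), *Klf5* from 12.4 to 65.0 CPM (2.39 ± 0.41) and *Grhl1* from 4.21 to 13.5 CPM (1.68 ± 0.65). The count from E13.5 to P0 was 3 without E13.5 replicate 1, E13.5 replicate 2 or P0 replicate 3, and with the 6 libraries alone. The count from E14.5 to E15.5 was 0 without E14.5 replicate 1, E14.5 replicate 2, E15.5 replicate 2 or E15.5 replicate 3, 1 without E13.5 replicate 1, E16.5 replicate 2 or E16.5 replicate 3, and 6 without E15.5 replicate 1. It was 1 with the replicate block, without a low-count filter, or without both E14.5 replicate 1 and E15.5 replicate 1. The epithelial sums given beside *Cdh1* apply to this list too.

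Among 20 other cadherins, 9 fell and 2 rose from E14.5 to E15.5 (median -0.81), where 13.4% of all genes fell and 12.7% rose. From E13.5 to P0 8 fell and 6 rose (median -0.40), beside 26.8% of all genes lower and 29.8% higher. With at least 10 CPM in the higher stage, the largest falls to E15.5 were *Cdh22* (log2 fold change -2.63 ± 0.55), *Cdh7* (-2.50 ± 0.55) and *Cdh8* (-1.82 ± 0.60), cadherins known from nervous tissue. By the same limit the largest falls to P0 were *Cdh24* (-2.23 ± 0.28), *Cdh10* (-1.97 ± 0.29) and *Cdh6* (-1.78 ± 0.28). *Cdh26* rose at both (3.02 ± 0.95 and 3.99 ± 0.99), and *Cdh13*, or T-cadherin (1.56 ± 0.37), and *Cdh15*, the muscle cadherin (1.47 ± 0.55), rose to P0. The count to E15.5 was 5 instead of 11 without E14.5 replicate 1 or 2 or E15.5 replicate 2 or 3, or without both replicates 1 of these stages, and the count to P0 was 8 without E13.5 replicate 2 and 9 without P0 replicate 2. Skeletal muscle markers went from a summed 241 to 439.7 CPM at E13.5 to 6115 to 37443 CPM at P0, and the neuronal sums are given beside *Cdh2*.

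Of 13 catenins and partners that anchor cadherins, 4 rose and 1 fell from E13.5 to P0 and 8 did not pass (median -0.36), a smaller share called than the 56.6% of all genes. *Ctnnb1*, beta-catenin, fell by 0.60 ± 0.16 on the log2 scale from 1483 to 976 CPM. *Nectin4*, an epithelial nectin (1.61 ± 0.45), *Jup*, plakoglobin (0.79 ± 0.15), and *Vcl*, vinculin (0.59 ± 0.19), rose. From E14.5 to E15.5 2 rose, *Vcl* (0.61 ± 0.19) and *Ctnna3*, which stayed under 10 CPM, with 26.1% of all genes called. The count was 0 without E14.5 replicate 1 or 2 (or without both E14.5 replicate 1 and E15.5 replicate 1) and 1 without any 1 library of E15.5. It was 4 without E16.5 replicate 1, 5 without P0 replicate 1 and 6 without E14.5 replicate 3 or P0 replicate 2. DESeq2 gave 6, and upper-quartile scaling, a filter at a mean of 1 CPM and the 6 libraries alone gave 4.

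Most mesenchymal genes that serve as readouts of the transition rose over the span in which *Vim* rose. Of 16, 14 rose and none fell from E13.5 to P0 (median 1.79, with 29.8% of all genes higher), and from E14.5 to E15.5 9 rose and none fell (median 1.09, with 12.7% of all genes higher). *Mmp9*, a matrix protease of osteoclasts and other cells, rose from 13.6 to 888 CPM (6.02 ± 0.48), and *Col1a1*, the main collagen of bone matrix, from 1399 to 19933 CPM (3.83 ± 0.35). To E15.5 the largest rises with at least 10 CPM in the higher stage were *Col1a1* (3.18 ± 0.34), *Sparc* (2.03 ± 0.30) and *Cd44* (1.51 ± 0.34), and the count was 5 without E14.5 replicate 1 or 2, or without both E14.5 replicate 1 and E15.5 replicate 1. Several of these are also bone matrix genes, and the osteoblast sums are given beside *Cdh11*.

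TGF-beta signals, which drive the fusion of the shelves and induce the transition in many epithelia, were mixed. From E13.5 to P0 3 of 12 rose and 6 fell (median -0.38, with 29.8% of all genes higher and 26.8% lower), and from E14.5 to E15.5 2 rose (12.7% of all genes), *Tgfb1* (1.58 ± 0.29) and *Tgfb3* (0.93 ± 0.31). *Tgfb3*, the ligand of the fusing medial edge, went from 67.0 ± 30.5 to 127 ± 19.4 CPM. To P0 the ligand gene *Tgfb1* (2.36 ± 0.30) and the receptor genes *Tgfbr3* (1.09 ± 0.26) and *Tgfbr2* (1.06 ± 0.27) rose. The receptor gene *Tgfbr1* (-1.06 ± 0.22) and the signal transducer genes *Smad2* (-0.74 ± 0.16) and *Smad4* (-0.71 ± 0.16) fell. The count to E15.5 was 1 without E13.5 replicate 1, E14.5 replicate 1 or 2, E15.5 replicate 2 or 3, E16.5 replicate 2 or 3, or both E14.5 replicate 1 and E15.5 replicate 1, and 6 without E14.5 replicate 3.

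**Figure D5:**
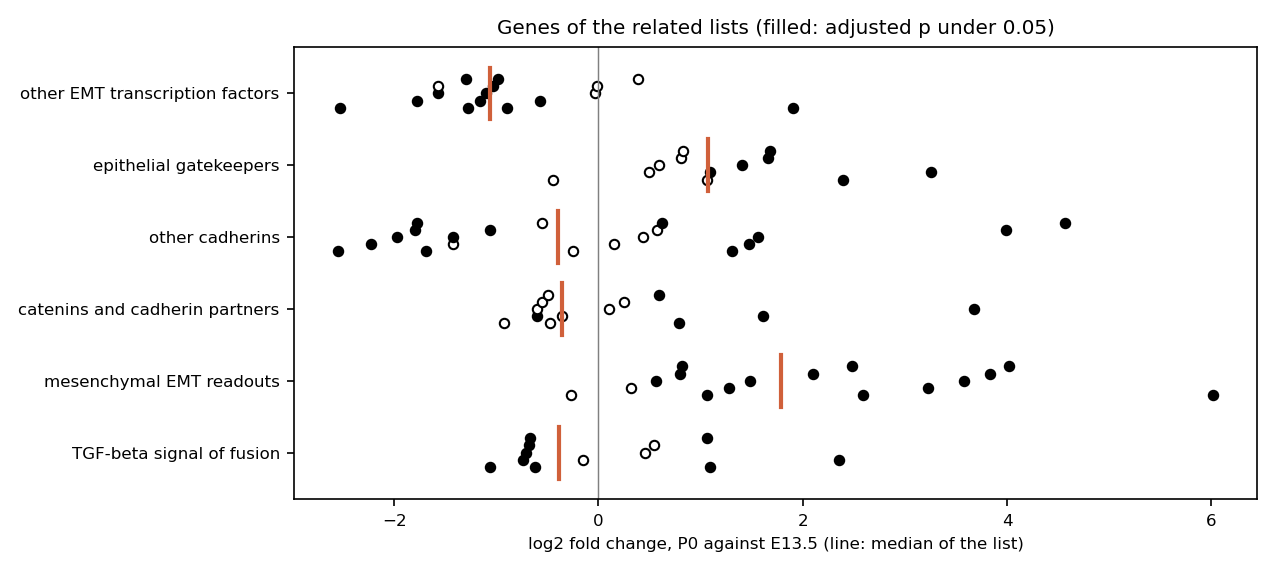
Log2 fold change from E13.5 to P0 (horizontal axis) of each gene in the 6 related lists (rows). Points are genes, filled where the edgeR adjusted p was under 0.05, and the vertical line in each row is the median. Most filled points of the other transition factors lie below 0, and those of the epithelial factors and mesenchymal readouts lie above 0.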

How the data were processed

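Bulk RNA sequencing of 15 libraries was analysed, 3 at each of 5 stages, grouped by the stage in the labels. The deposited table holds raw counts per gene. Per the file headers it came from featureCounts 2.0.1 with an annotation named GENCODE M18, run on trimmed, duplicate-marked alignments with read pairs counted on the reverse strand. The submitters' processing notes name cutadapt 3.4, HISAT2 2.2.1 and mm10 among others. Symbols came from GENCODE M21 by gene identifier, and positions are those of the table. Of the 10 genes, 9 had the same position in M21.

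Genes were filtered with filterByExpr (minimum count 10), which kept 22151. The model, in edgeR 4.0.16 under R 4.3.3, held a coefficient for each stage, TMM factors and all 15 libraries. Each of 5 contrasts and the 5 stages together were tested with the quasi-likelihood F test, Benjamini-Hochberg adjusted over all tested genes, with a threshold of 0.05. The SE of a fold change was computed from its size and F. TPM were computed from counts and the table's gene lengths, and log2 CPM used a prior count of 2. Within-library log2 ratios of 7 gene pairs were tested by exact permutation over the assignments of libraries to stages, two-sided by construction. At these depths 3 counts correspond to 0.0435 to 0.140 CPM without TMM, which covers counting error only.

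All members are named. Genes of other lists are named where they had the largest called change of their list, at most 3 in each direction, with at least 10 CPM in the higher stage, except where stated. One gene that this rule would name is not reported here. The members and lists were chosen with earlier results of these data known. Alternatives were DESeq2 1.42.0, DESeq2 size factors, upper-quartile scaling, no filter or a mean of at least 1 CPM, a prior count of 0.5, the 6 libraries of a contrast alone, the replicate number as a block, and leaving out each library. Leaving out E14.5 replicate 1 and E15.5 replicate 1 together was added after the data were seen. Counts were simulated for E15.5 against E14.5 over 21695 genes. Recovery was 43.3% for 67 genes set to change 2-fold, 82.1% for 67 set to 4-fold and 98.5% for 66 set to 8-fold. All of these had a mean of at least 10 CPM. No other gene was set to change, while 26.1% of all genes were called in the real comparison. The adjustment depends on that share, so these percentages do not give the recovery in the real data.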

Additional observations from a re-analysis of the deposited data

How the results depend on the processing

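The number of the 10 genes called stayed at 0 under every alternative for E14.5 against E13.5 and E16.5 against E15.5. For P0 against E13.5 it was 7, 5 to 9 with 1 library left out and 6 to 8 otherwise, and over all 5 stages it was 5, 4 to 7 and 4 to 7. For E15.5 against E14.5 it was 2, 0 to 3 with 1 library left out (0 without E14.5 replicate 1 or 2, 1 without E15.5 replicate 2 or 3) and 1 without both E14.5 replicate 1 and E15.5 replicate 1. For P0 against E16.5 it was 0, and 0 to 1 with 1 library left out (1, *Zeb2*, without E16.5 replicate 1).

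The labels do not say whether the replicate numbers pair the libraries. Deviations of same-numbered libraries from their stage means had a mean correlation of 0.0594 over 30 pairs (range -0.303 to 0.548). Over 60 pairs of other numbers it was -0.0322 (range -0.498 to 0.426). Centring within each stage ties the second mean to the first, so these means cannot exclude pairing. With the replicate block the counts were 2 for E15.5 against E14.5, 7 for P0 against E13.5 and 6 over all stages (*Snai2* added, edgeR adjusted p = 0.00475), and 0 in the other contrasts. With the replicate block the log2 ratio of *Cdh2* to *Cdh1* kept its difference of -2.36 with an exact adjusted p of 0.0513.

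With 1 library left out, the difference from E13.5 to P0 ranged from -2.79 to -1.93 for the log2 ratio of *Cdh2* to *Cdh1*, from -0.72 to -0.47 for *Epcam* to *Cdh1*, from -0.79 to -0.28 for *Snai2* to *Snai1*, from -0.32 to 0.29 for *Cdh11* to *Cdh2* and from -0.45 to 0.39 for *Vim* to *Epcam*. The last 2 were near 0 and changed sign.

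Of the members' fold changes under the alternatives, 1082 kept direction and call, 19 were no longer called, 14 became called and 35, none of them called, changed sign. Outside the single-library fits these were *Zeb2* for E14.5 against E13.5 (-0.05 with upper-quartile scaling, -0.01 with a mean of at least 1 CPM, -0.02 with 6 libraries, -0.09 without both libraries), for E15.5 against E14.5 (0.03, upper-quartile) and, without both libraries, for E16.5 against E15.5 (0.02), *Zeb1* for E16.5 against E15.5 (0.12) and *Cdh11* for E15.5 against E14.5 (-0.01) without both libraries, *Cdh1* for E16.5 against E15.5 (0.00 with the replicate block) and *Cdh2* for P0 against E16.5 (-0.01 without a filter). With 1 library left out the ranges that crossed 0 were, for E14.5 against E13.5, *Zeb2* -0.09 to 0.17, *Cdh1* -0.13 to 0.31 and *Epcam* -0.38 to 0.09. For E15.5 against E14.5 they were *Snai2* -0.06 to 0.44 and *Zeb2* -0.23 to 0.02. For E16.5 against E15.5 they were *Zeb1* -0.30 to 0.12, *Zeb2* -0.37 to 0.20, *Twist2* -0.51 to 0.34, *Cdh1* -0.41 to 0.12 and *Epcam* -0.68 to 0.03. For P0 against E16.5 they were *Snai1* -0.11 to 0.32, *Snai2* -0.15 to 0.47, *Cdh2* -0.19 to 0.23 and *Cdh11* -0.45 to 0.05. The cause was not tested. Upper-quartile scaling moved the median of all genes for E15.5 against E14.5 from 0.03 to 0.16, and no called member changed direction. At these depths and 3 libraries a stage, 43.3% of simulated 2-fold and 82.1% of 4-fold changes were called for E15.5 against E14.5. Far fewer genes were set to change there than the 26.1% called in the data, so the recovery in the data is not known. Depth was not varied.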
